A study of Caenorhabditis elegans with 4 samples.

Results

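The proteasome is the protease complex that degrades proteins tagged with ubiquitin. Its barrel-shaped core is built of rings of alpha subunits, which gate the entry of substrates, and of beta subunits, some of which cut peptide bonds. A regulatory particle caps the core: its base holds a ring of ATPases that unfold substrates and push them into the barrel, and its lid removes the ubiquitin chain. In the nematode Caenorhabditis elegans timed protein degradation is known to drive the passage from oocyte to embryo. The genes described here are 31 subunit genes, matched by sequence identifier with or without 1 isoform letter, among 19380 named genes on the arrays. They gave 34 transcripts and fell into 7 alpha genes (pas-1 to pas-7), 7 beta genes (pbs-1 to pbs-7), 6 ATPase genes (rpt-1 to rpt-6), 8 lid genes (rpn-3, rpn-5, rpn-6.1, rpn-7, rpn-8, rpn-9, rpn-11 and rpn-12) and 3 other base genes (rpn-1, rpn-2 and rpn-10). The ubiquitin receptor gene rpn-10 was placed in the last class, although its protein bridges base and lid. All 31 identifiers were found, each under the symbol given in RefSeq's gene table of assembly WBcel235.

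Total RNA of early embryos was measured on 4 single-colour NimbleGen arrays, replicates 1 to 4, called arrays 1 to 4 here. All of them belong to 1 group, strain PFR40 with the tm1489 mutation of hpl-2, a gene for a heterochromatin protein, although the growth protocol speaks of N2, the wild-type strain. The adults were hermaphrodites with few males, and the wild-type arrays that the design sets beside them are not analysed here, so no value below is a difference between mutant and wild type. Nothing in the labels ties the replicates to separate cultures, so a p-value below covers the spread among these samples alone, which may be technical.

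The signal is a linear, quantile-normalized brightness per transcript, with array medians of 576 to 591. It depends on each transcript's own probes, so levels are not compared between genes. Each gene is compared with itself across arrays and with a background, the 95th percentile of the log2 signal of 1343 chemoreceptor genes on the same array (8.09, 8.45, 8.26 and 8.48 on arrays 1 to 4). Of 12 early embryo markers, among them pie-1, mex-5 and pos-1, 12 were above background. Also above it were 12 of 13 body wall muscle markers and 9 of 11 oocyte and eggshell markers. Of 6 vitellogenin genes, which encode the yolk proteins of the adult intestine, 0 were above background and 6 were called below. Array 1 stood apart in several tissue and stress lists, as given further down, and the spread and the class medians of the proteasome genes are therefore also given without it.

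All proteasome genes gave signal well above background. Of the 31 genes, 31 were called above background, as were 34 of 34 transcripts (limma, two-sided, adjusted p from 2.58e-10 to 2.90e-10). Over the whole series 51.9% of named genes and 55.1% of transcripts were above background. The genes lay between 4.92 (pas-7) and 6.35 (rpn-2) log2 units above it, with a median of 5.53, and the median of all named genes was 0.49. When a gene had to lie more than 1 log2 unit above background, 31 of 31 were still called, against 43.4% of all named genes. Their mean signals held percentiles 84.8 to 98.9 among all transcripts. The SD of the height above background, 0.09 to 0.18 for these transcripts, holds the differences between the 4 backgrounds as well as those of the gene.

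**Figure D1:**
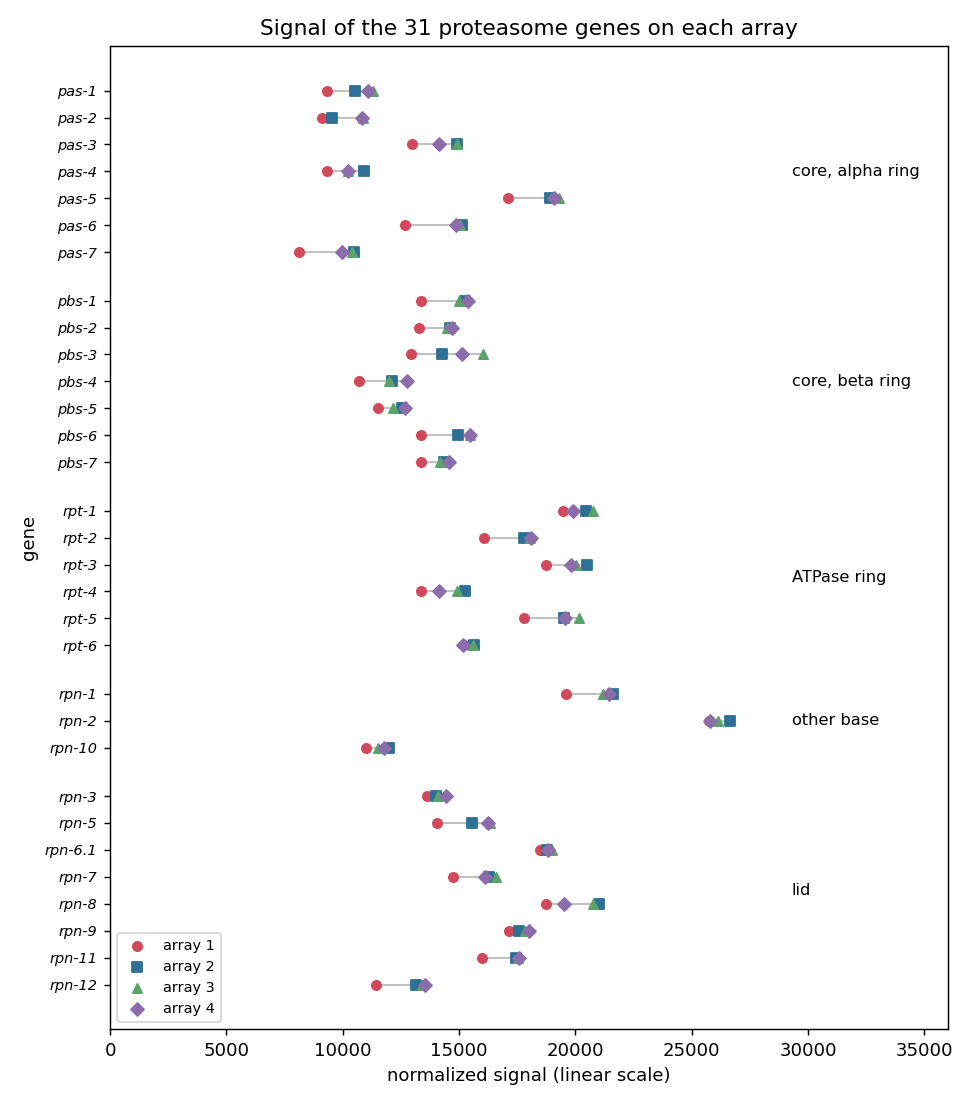
Normalized signal (x axis, linear scale) of each of the 31 proteasome genes on arrays 1 to 4, grouped by subunit class, with a grey line from the lowest to the highest array; a gene with several transcripts is shown by its brightest. Array 1 is the lowest point for 30 of the 31 genes, rpt-6 being the exception, and distances between genes depend on their probes and are not levels.

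The most regular feature of the group was its low signal on array 1. There 30 of the 31 genes, and 33 of the 34 transcripts, had their lowest value of the 4 arrays, and 0 of the 31 had their highest. Of all 10067 named genes above background 2712 were highest on array 1. Among other genes above background 54.8% were lowest on array 1, and among the 3255 other transcripts whose mean signal lay in the range of the proteasome transcripts, 9684 to 26076, the share was 45.3%. Counted by gene, 1202 of the 2489 other genes in that signal range were lowest on array 1, a slightly higher share. The differences were small: the median proteasome gene lay 0.11 log2 below its own mean of the 4 arrays on array 1, at 92.6% of it, and 0.03, 0.04 and 0.04 above it on arrays 2, 3 and 4. With 4 arrays of 1 group no contrast can be tested, and the shares above are descriptions.

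The largest deviations on array 1 were those of the alpha genes pas-7, pas-6 and pas-1, at -0.26, -0.18 and -0.18 log2. The medians of the alpha and beta rings were equal at this precision, at -0.14. The gene pas-7 (ZK945.2) had signals of 8106, 10468, 10381 and 9983 on arrays 1 to 4, a 1.29-fold range and the widest of the group. Array 1 was low and the other arrays lay close together, with a fold range of 1.05 among them. The gene pas-6 (CD4.6) behaved in the same way, with 12678, 15146, 15022 and 14873. For pas-1 (C15H11.7) the signals were 9305, 10539.7, 11322 and 11079.7, so that array 2 lay between array 1 and the pair of arrays 3 and 4. The gene pas-2 (D1054.2) gave 9125, 9520.3, 10854 and 10819, and here arrays 1 and 2 were both low. It was the only proteasome gene for which array 2 deviated by more than 0.03 log2 downwards, at -0.08. The remaining alpha genes gave 12975, 14898, 14906 and 14156 for pas-3 (Y110A7A.14), 9341, 10913, 10242 and 10245 for pas-4 (C36B1.4) and 17118, 18908, 19280.0 and 19088 for pas-5 (F25H2.9). All 7 alpha genes were lowest on array 1, where they deviated by -0.26 to -0.12 log2 with a median of -0.14. None was highest on array 4: 3 peaked on array 2 and 4 on array 3.

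In the beta ring the catalytic genes, like the others, were lowest on array 1. In yeast and human the beta subunits of types 1, 2 and 5 hold the active sites, with caspase-like, trypsin-like and chymotrypsin-like activity. Their counterparts here are pbs-1 (K08D12.1), with signals of 13363, 15254, 14986 and 15371, pbs-2 (C47B2.4), with 13299, 14617, 14477 and 14687, and pbs-5 (K05C4.1), with 11536, 12534, 12155 and 12672. On array 1 they deviated by -0.14, -0.10 and -0.08 log2. Of the structural subunit genes, pbs-3, pbs-4 and pbs-6 lay lower there than every catalytic gene, at -0.17, -0.15 and -0.15, and pbs-7 lay at -0.08. The gene pbs-3 (Y38A8.2) had 12939, 14254, 16032 and 15118 and the widest range of the ring, 1.24-fold, and pbs-7 (F39H11.5) had 13379, 14333, 14183 and 14575 and the narrowest, 1.09-fold. The gene pbs-4 (T20F5.2) gave 10714, 12135, 12003 and 12744 and pbs-6 (C02F5.9) 13363, 14976, 15489 and 15488. All 7 beta genes were lowest on array 1, with a median deviation of -0.14 and a range of -0.17 to -0.08. Unlike in the alpha ring, 5 of the 7 were highest on array 4 and 2 on array 3. Of all 10067 named genes above background 3077 were highest on array 2, 2120 on array 3 and 2158 on array 4. Some peaks were near ties, as for pbs-2 (14617 and 14687 on arrays 2 and 4) and pas-3 (14898 and 14906 on arrays 2 and 3). The difference between rings was not tested.

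The ATPase genes deviated less. The signals of rpt-1 (C52E4.4) were 19469, 20470.5, 20741 and 19890.5, a 1.07-fold range. Those of rpt-2 (F29G9.5) were 16082, 17799, 18054 and 18111 and those of rpt-3 (F23F12.6) 18724, 20521, 20009.5 and 19813. In yeast the C-terminal tails of the products of rpt-2, rpt-3 and rpt-5 dock into the alpha ring. The gene rpt-5 (F56H1.4) gave 17804, 19504, 20176 and 19551. The only gene of the group that was not lowest on array 1 was rpt-6 (Y49E10.1), with 15232, 15657, 15589 and 15162. Its arrays 1 and 4 were nearly equal, and its SD of 0.02 log2 lay at percentile 2.23 of all transcripts. The 6 genes deviated by -0.12 to -0.02 on array 1, with a median of -0.09. On array 4 their median was -0.0068, against 0.05 for the core and 0.03 for the lid. With every transcript counted that ATPase value was 0.0042, since the transcripts of rpt-4 (F23F1.8) differed there: F23F1.8a had 13359, 15259, 14914 and 14135 on arrays 1 to 4 and F23F1.8b 13313, 14857, 14249 and 14678, so that array 4 was below the mean for the first and above it for the second.

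Of the lid genes, the enzyme gene rpn-11 (K07D4.3), whose product is the metalloprotease that cuts the ubiquitin chain from the substrate, had 15969.8, 17440.2, 17534 and 17579.5. Array 1 was low and the other arrays lay within a 1.01-fold range, the narrowest among the 31 genes without array 1. Its partner rpn-8 (R12E2.3), related in sequence but known in other species to lack the enzyme's active site, had 18718, 21011, 20757 and 19521, with array 4 between array 1 and the rest. The scaffold genes fell at both ends of the range. The gene rpn-12 (ZK20.5) had 11446, 13136, 13407 and 13546, a 1.18-fold range, and rpn-5 (F10G7.8) had 14069, 15562, 16334 and 16239.8, a 1.16-fold range. The narrowest ranges of the lid belonged to rpn-6.1, which worm studies have linked to proteasome activity and long life, at 1.03-fold, to rpn-9 (T06D8.8) at 1.05-fold and to rpn-3 (C30C11.2) at 1.06-fold. The signals were 17148, 17558, 17831 and 17999.9 for rpn-9, 13639.9, 14021, 14088 and 14446 for rpn-3 and 14743, 16275, 16581 and 16125 for rpn-7 (F49C12.8). All 8 lid genes were lowest on array 1, with deviations of -0.17 to -0.02 and a median of -0.10.

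Among the other base genes the scaffold gene rpn-1 (T22D1.9) had 19596, 21602, 21174 and 21428 and rpn-10 (B0205.3) 10993, 11972, 11531 and 11762. Both were lowest on array 1. For the second scaffold gene, rpn-2 (C23G10.4), both transcripts were lowest on array 1, but they differed in size there and in direction on array 4, where the first lay 0.04 log2 above its mean and the second deviated by -0.02. C23G10.4a gave 23636, 25876, 25258 and 25915, with a SD of 0.06 log2, and C23G10.4b gave 25762, 26652, 26115 and 25784, with a SD of 0.02. Both transcripts of rpn-6.1 (F57B9.10) were also lowest on array 1, with 15189.7, 15947, 15676 and 16002 for F57B9.10a and 18459, 18777, 18993 and 18805 for F57B9.10b. In both genes the brighter transcript, which stands for the gene in the counts, varied less than the dimmer one. For rpt-4 it was the other way round, with a SD of 0.09 for the brighter F23F1.8a and 0.07 for F23F1.8b. How many probes each transcript has is not given in the sources used here.

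**Figure D2:**
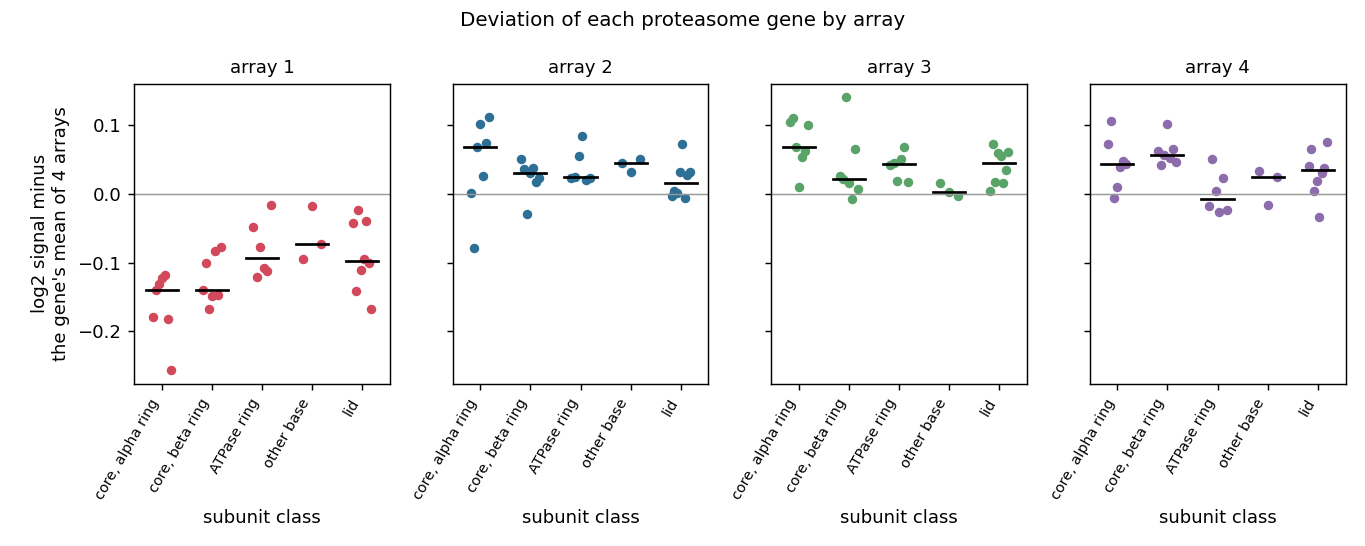
Log2 signal minus the gene's mean of the 4 arrays (y axis) for each proteasome gene by subunit class (x axis), in 1 panel per array; points are genes and black bars are medians. On array 1 every point lies below 0 and the core points reach lowest, down to -0.26. The core as a whole, the ATPase ring and the lid overlap on all arrays. The other base genes (-0.10 to -0.02 on array 1) lie apart from the alpha genes (-0.26 to -0.12) there. With the brightest transcript of each gene they also lie narrowly apart from the ATPase genes on array 3 and the beta genes on array 4. These gaps close with the dimmer transcripts, F23F1.8b of rpt-4 (-0.0013 on array 3) and C23G10.4a of rpn-2 (0.043 on array 4).

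Set side by side, the core lay lower on array 1 than the ATPase ring and the lid. The median deviations were -0.14 for the 14 core genes, -0.09 for the 6 ATPase genes and -0.10 for the 8 lid genes, or 90.8%, 93.8% and 93.5% of the genes' own means. The ranges overlapped: 10 of the 14 core genes lay lower than every ATPase gene, and 4 lay lower than every lid gene. The order of core below the others also held with means over genes (-0.14, -0.08 and -0.09) and after subtraction of the median of all transcripts above background on each array (-0.09, -0.05 and -0.05). Genes are not replicates of a condition, and the difference between the classes was not tested. Signal brightness moved with it. Across the 31 genes the mean log2 signal and the deviation on array 1 had a Pearson's r of 0.58, with dimmer genes lower on array 1, against 0.39 among the 14 core genes alone, 0.34 among the 17 others and 0.055 among the 2489 other genes in the same signal range. These correlations are across genes that share 4 arrays and are given with no test, and the part of brightness in the order of the classes was not tested.

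Apart from array 1 most of the genes varied little. The median SD over the 4 arrays was 0.08 log2, against 0.12 for other genes above background and 0.06 for other genes in the same signal range. Without array 1 it was 0.03, against 0.06 and 0.04, and the median fold range was 1.03, with pas-2 at 1.14 and pbs-3 at 1.12. In that comparison 23 of the 31 genes varied less than the median of the other genes in their signal range, whereas with array 1 included 22 of the 31 varied more than it. Among arrays 2 to 4 no array was low throughout: 13 genes were lowest on array 2, 8 on array 3 and 10 on array 4. The shares among other genes above background were 32.3%, 41.1% and 26.6%. The core medians without array 1 were -0.0004, 0.0075 and 0.01 on arrays 2 to 4, those of the ATPase ring 0.01, 0.01 and -0.03, and those of the lid -0.01, 0.0076 and 0.01.

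**Figure D3:**
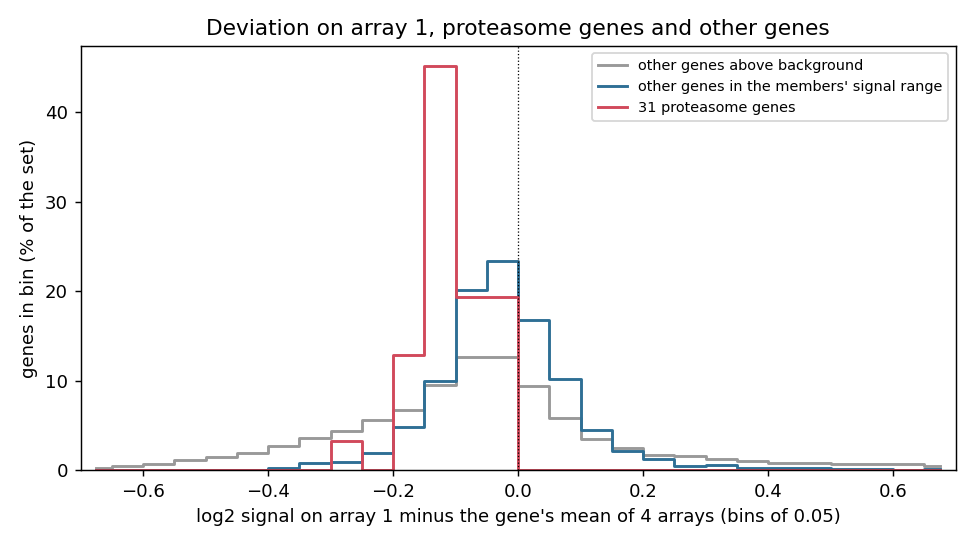
Share of genes (y axis, percent of each set) by their deviation on array 1, the log2 signal minus the gene's mean of 4 arrays (x axis, bins of 0.05), for the 31 proteasome genes, other genes above background and other genes in the same signal range. The proteasome genes lie between -0.26 and -0.02; 5.35% and 0.362% of the other sets fall outside the plotted range.

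The place of the group among other genes depended on which genes it was set against. Other genes above background deviated on array 1 by a median of -0.06, with quartiles of -0.19 and 0.05. Of the 31 proteasome genes 25 lay below that median but only 1 below the lower quartile. Other genes in the same signal range were more tightly spread, with a median of -0.03 and quartiles of -0.08 and 0.03, and 28 of the 31 lay below their median and 22 below their lower quartile. The deviations of the proteasome genes were thus modest among all genes with signal and low among bright ones, as the histogram of deviations on array 1 shows.

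Most ribosomal protein genes, also bright and used in every cell, deviated the other way on array 1. Of 30 genes for the small subunit 0 were lowest on array 1 and 26 were highest there, and of 46 for the large subunit 2 were lowest and 41 highest. Among all 10067 named genes above background 2712 were highest there. Of the 46 large subunit genes 45 were above background and 1 was called below it. Their medians on array 1 were 0.09 and 0.12 log2, at 106% and 109% of the genes' own means. On arrays 2 and 3 they were -0.05 and -0.04 for the small subunit and -0.05 and -0.05 for the large one. The median percentile of the mean signal among all transcripts was 92.6 for proteasome, 93.4 for small subunit and 92.3 for large subunit genes. No test over samples exists for this difference, since each array is a single sample of the same group.

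Other lists also differed on array 1, and those of heat shock, eggshell and muscle genes did so by larger amounts. The inducible heat shock genes, which respond to misfolded protein, were 7 of 7 above background, 7 of 7 lowest on array 1 and 7 of 7 highest on array 4. Of all 10067 named genes above background 5527 were lowest on array 1 and 2158 highest on array 4. In the heat shock list hsp-16.1 and hsp-16.11 had nearly equal signals, as did hsp-16.48 and hsp-16.49. Whether the probes tell the genes of each pair apart is not given, so counts and sums may count 1 transcript more than once. The summed signals of the heat shock genes were 23489, 45315, 57077 and 73841 on arrays 1 to 4. The proteasome genes followed them on array 1 but not in the order of the other arrays, since 10 peaked on array 2, 11 on array 3 and 10 on array 4. Oocyte and eggshell markers, 9 of 11 above background, had summed signals of 98819, 136780.1, 140534 and 151925. Body wall muscle markers, 12 of 13 above background, ran the opposite way on array 1, where they were highest. Their summed signals were 68535, 20132, 35136 and 25427, with no steady fall over the other arrays. The 12 early embryo markers were all lowest on array 1, with a median deviation there of -0.11, equal at this precision to that of the proteasome genes, and summed signals of 178291, 196658, 202316 and 198436. The summed signals of the 6 vitellogenin genes stayed between 1380.3 and 1448, and no marker in these lists was at 0. Less RNA per cell and fewer cells of a type cannot be told apart in such samples. The part of embryo stage, of stress and of cell makeup in the proteasome values was not tested.

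**Figure D4:**
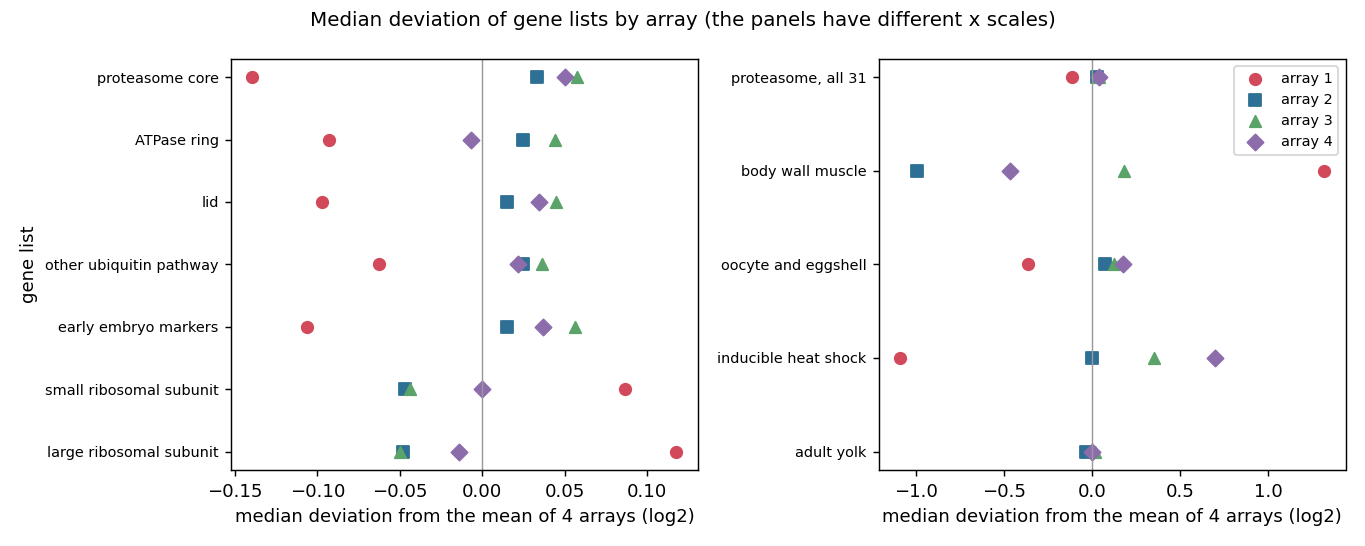
Median deviation from the gene's mean of 4 arrays (x axis, log2) of gene lists (y axis) on each array; the left panel shows proteasome classes, ubiquitin pathway genes, early embryo markers and ribosomal proteins, the right panel the whole proteasome beside tissue and stress lists, on a wider scale. Array 1 lies lowest for the proteasome classes and highest for both ribosomal subunits, and the heat shock and muscle medians on array 1 are -1.09 and 1.32.

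The wider ubiquitin pathway was present throughout. Of 37 measured genes outside the group 37 were above background, against the 51.9% of all named genes. Of the 37, 26 were lowest on array 1, with a median deviation there of -0.06. Among all genes above background outside the proteasome group 54.8% were lowest on array 1, and their median deviation was also -0.06. The receptor and shuttle genes rpn-13, rad-23 and ubql-1 lay 5.18, 5.01 and 5.44 log2 above background (limma, adjusted p = 2.60e-10, 2.76e-10 and 2.60e-10), and on array 1 deviated by -0.05, -0.06 and 0.02. The deubiquitinase genes ubh-4, usp-14 and usp-48 lay 5.16, 5.48 and 4.96 above it. Of the genes through which worms are known to restore proteasome levels, the transcription factor gene skn-1 lay 5.58 above background, the protease gene ddi-1 5.67 and the glycanase gene png-1 3.65. On array 1 skn-1 deviated by -0.11, ddi-1 by -0.08 and png-1 by -0.05. The skn-1 values are those of T19E7.2c, the brightest of its 3 transcripts, and skn-1 is also 1 of the early embryo markers. Whether that transcript is the one that takes part in this control was not tested.

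Ubiquitin genes and activating enzyme genes were mostly not lowest on array 1. The polyubiquitin gene ubq-1 had signals of 40471, 40604, 41946 and 40037 on arrays 1 to 4, nearly level. The gene ubq-2, which encodes ubiquitin joined to a ribosomal protein, had 12327, 11796, 11555 and 11628 and was highest on array 1. The activating enzyme gene uba-1 had 19751, 21778, 23602 and 21720.4, lowest on array 1, and uba-2, which activates the related modifier SUMO, had 3400.2, 3969, 3096 and 3018, highest on array 2. Of these 4 genes 1 was lowest on array 1, against 54.8% of all genes above background outside the proteasome group. Of the 11 conjugating enzyme genes 9 were, with let-70 at 31701, 33292, 34259 and 33721, ubc-1 at 470.0, 605, 607 and 660.4 and ubc-3, an exception, at 19001, 17368, 18421 and 18750.3. The unfolding ATPase genes cdc-48.1, with 23273, 25911, 26522 and 26312, cdc-48.2, with 20793, 22490.3, 22338 and 22355, and cdc-48.3, with 3099, 3689.5, 3688 and 3703, were each lowest on array 1, as were 6 of 8 genes of their list.

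The gene of this list closest to background was rpn-6.2, the paralog of the lid gene rpn-6.1. Its signals were 320.4, 528, 449.6 and 438, and it lay 0.42 ± 0.18 above background (SD, n = 4; limma, adjusted p = 0.0035), while rpn-6.1 lay 5.88 ± 0.17 above it. When more than 1 log2 unit above background was required, 35 of the 37 pathway genes were called, rpn-6.2 and ubc-1 being the exceptions. The values are heights above background of different probes, so they are no ratio of levels. It varied by a 1.65-fold range over the arrays, lowest on array 1 and highest on array 2, and together with ubc-1 and uba-2 was the most variable of the 37 pathway genes.

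In the genome the proteasome genes were scattered. RefSeq's table placed 10 of the 31 on chromosome I, 7 on II, 6 on III, 3 on IV, 5 on V and 0 on X. These chromosomes hold 14.2%, 17.5%, 13.3%, 16.3%, 25% and 13.6% of the named genes in the same order. Of the named genes on X 49.6% were above background, against 33.5% on V and 51.9% to 68.5% on the other chromosomes. The closest neighbours were pbs-7 and pas-4 on chromosome I, with 4 protein-coding genes between them, and the next pair, pas-5 and rpn-10, had 47 between them. The signals of pbs-7 and pas-4 deviated by -0.08 and -0.12 on array 1, and by 0.02 and 0.10 on array 2.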

How the data were processed

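NimbleGen labelled the RNA with Cy3, per the labels' protocols. The deposited values are linear intensity values, quantile normalized by the authors and averaged to 1 per transcript, per the file headers and file naming. The sources used here name no scanner, background correction, genome build or probe number. The series table held the same values (largest difference 0). Quantile normalization hides a shift of most transcripts, and averaging hides disagreement between probes. The number of arrays limits the precision.

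Of 23181 transcripts, 17151 matched RefSeq's WBcel235 gene table as written, 5352 without the isoform letter and 678 not at all. No sequence is printed here. A gene took its transcript with the highest mean. Log2 signal minus the array's background was fitted with limma 3.58.1 (R 4.3.3; lmFit, eBayes, intercept only), two-sided, with Benjamini-Hochberg adjustment over all transcripts at 0.05. Above background means an adjusted p below that and a positive estimate. A gene's deviation on an array is its log2 signal minus its mean of the 4 arrays. The fit was tested on simulated data.

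Members and lists were chosen with earlier results of these data known. The named pathway genes are the first 3 measured in each sublist, any not above background and the 3 with the largest SD. The pathway symbols usp-7 and uba-3 were not in the gene table and not used. The counts of genes lowest on an array, the signal range and the correlations were chosen after the values were seen. For that range the share of transcripts was put in place of the share of genes after both were seen, and the report gives the gene counts beside it.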

Additional observations from a re-analysis of the deposited data

Results flagged for a closer look

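In some genes 1 array lay far from the other 3. The measure is the gap between the farthest array and its nearest neighbour divided by the whole range of the 4 log2 signals, set against Dixon's critical value for 4 samples. Of the 31 proteasome genes 5 passed, each with array 1 apart and low. The value was 0.836 for pas-5, 0.898 for pas-6, 0.855 for pbs-2, 0.854 for rpt-2 and 0.917 for rpn-11. The median deviations passed as well, at 0.925 for all 31 genes and 0.877 for the core, whereas those of the ATPase ring and the lid did not. Of the pathway genes rpn-13 gave 0.838, cdc-48.2 0.914 and cdc-48.3 0.976, again with array 1 low. In all, 10 of the 55 values examined passed. No share over all genes is given for this measure, so an excess among the proteasome genes cannot be read from these counts. Among other genes above background 54.8% were lowest on array 1. Chance flags about 1 in 20 groups, and these genes share their 4 arrays, so the flags are not independent of each other.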

How the results depend on the processing

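The count of 31 proteasome genes above background, with 14 in the core, 6 in the ATPase ring and 8 in the lid, was the same with each alternative background (99th or 75th percentile of the chemoreceptors, 25th percentile of all genes, or the mean of the 4 backgrounds), with a distance of more than 1 log2 required, with every transcript of a gene required, with low transcripts left out, and without each array in turn. With 1 array left out, the genes lay 4.87 to 6.41 log2 above background. With the 99th percentile the lowest of them, pas-7, still lay 4.01 above it, so these alternatives could hardly change the count. The pathway list fell from 37 to 35 genes with the 99th percentile and with the distance of 1 log2. The deviations of core, ATPase ring and lid moved by less than the spread between arrays under every alternative run. The small ATPase median on array 4, -0.0068, changed sign with the mean over genes (0.0017), with every transcript counted (0.0042) and without array 2 or 3 (0.01 and 0.0034). The lid median on array 2, 0.02, became -0.0074 after subtraction of the median of transcripts above background, and -0.01 without array 1, when the core median on array 2 became -0.0004. No paired analysis was possible because all arrays belong to 1 group. The height above background holds the differences between the backgrounds of the arrays, and a difference as small as those described here cannot be separated from the normalization with 4 arrays.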
